A study of Mus musculus with 18 samples.

Results

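The loci described here are those of the axon guidance cues and their receptors in lung endothelial cells (ECs): the semaphorins and plexins, the ephrins and Eph receptors, the Slits and Robos, and the Unc5 genes. ATAC-seq, in which a transposase cuts open chromatin, had been done on sorted lung ECs, and peaks from the 18 lists were joined wherever they shared 1 bp or more. Joined regions that came from 2 or more lists were kept, 47338 in all. A region was assigned to a locus when the RefSeq transcription start site (TSS) nearest to its midpoint was that of a gene whose symbol belongs to these families, and 310 of the 47338 regions met this rule. They lay at 57 of the 65 RefSeq genes with such a symbol. Efnb3, Epha6, Epha8, Epha10, Sema4f, Sema4g, Slit1 and Unc50 had no region. Unc50 is no netrin receptor and matched only by its letters. The same holds for 2 of the 57 genes that had regions. Plxna4os1, with 11 regions, is a noncoding transcript antisense to Plxna4, and Unc5cl, with 5 regions, encodes a protein that resembles Unc5 receptors but is not known to bind netrin.

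Each list came from 1 mouse. All mice were FVB animals of both sexes that carried a Col1α1-GFP reporter, which marks collagen-producing cells, and the ECs were sorted as CD31+ cells negative for CD45, EpCAM and GFP. The young were 2 and the aged 18 months old, and all were killed at day 30 after intratracheal delivery of PBS (Sham) or of bleomycin at 1 U/kg (Bleo), a drug that injures the lung and causes fibrosis. The groups were Young Sham (n = 5), Young Bleo (n = 4), Aged Sham (n = 4) and Aged Bleo (n = 5). The gate holds all CD31+ ECs of the lung, so a shift between EC types and a change within a cell cannot be told apart in these bulk samples.

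Semaphorins bind plexins, and the secreted class 3 members mostly need neuropilins as co-receptors. Sema3e instead binds Plxnd1 directly and repels sprouting vessels. Ephrins are tethered to the membrane and bind Eph receptors on neighbouring cells. Efnb2 marks arterial and its receptor Ephb4 venous endothelium. Slits are secreted ligands of Robos, and Robo4 is the Robo that ECs express most specifically. Unc5 receptors bind netrins, and Unc5b is the one best known in endothelium.

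The sequences of 6 regions are printed because each came first by p in a comparison described below, Slit2 by peak strength and the others by presence of a peak. Ties in p between regions were broken by the difference and the strength of the peak. None of the presence differences passed adjustment over all regions. Each is 300 bases of the mm10 plus strand around the summit of its strongest peak, read from the GRCm38.p6 reference, which is C57BL/6J and not FVB. Capitals mark the core of the ERG motif, searched as CAGGAAG on both strands. ERG is a transcription factor that maintains EC identity. The Sema6c region, at chr3:95174248-95174547, had a peak in all Young Sham and in no Aged Sham mice. The Unc5cl region, at chr17:48512696-48512995, had a peak in all Young Sham and in no Young Bleo mice, and it holds the only match among these 6 windows. The Sema4d region, at chr13:51717016-51717315, had a peak in all Young Bleo and in no Young Sham mice. The Unc5c region, at chr3:141550513-141550812, had a peak in all Young Sham and in no Aged Bleo mice. The Ephb3 region, at chr16:21211073-21211372, had a peak in all Aged Sham and in no Aged Bleo mice. The Slit2 window, at chr5:47982951-47983250, is the promoter whose peak was weaker in aged mice.
Sema6c: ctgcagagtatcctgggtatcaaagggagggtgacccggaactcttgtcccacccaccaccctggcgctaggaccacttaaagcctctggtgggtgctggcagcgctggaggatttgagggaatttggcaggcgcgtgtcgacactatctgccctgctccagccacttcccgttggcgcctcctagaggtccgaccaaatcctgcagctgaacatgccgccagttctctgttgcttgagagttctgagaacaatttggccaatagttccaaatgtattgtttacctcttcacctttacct
Unc5cl: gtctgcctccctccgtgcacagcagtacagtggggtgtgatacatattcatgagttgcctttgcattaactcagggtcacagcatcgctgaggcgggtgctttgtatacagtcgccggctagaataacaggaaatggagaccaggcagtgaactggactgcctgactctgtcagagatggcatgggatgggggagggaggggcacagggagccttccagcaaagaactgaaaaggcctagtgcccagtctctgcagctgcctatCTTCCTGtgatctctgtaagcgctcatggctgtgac
Sema4d: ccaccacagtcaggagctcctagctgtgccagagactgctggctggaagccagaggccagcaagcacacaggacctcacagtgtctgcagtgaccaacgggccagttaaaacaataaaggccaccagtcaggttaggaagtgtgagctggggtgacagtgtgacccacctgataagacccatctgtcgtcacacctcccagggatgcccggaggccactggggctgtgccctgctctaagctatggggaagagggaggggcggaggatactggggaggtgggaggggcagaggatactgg
Unc5c: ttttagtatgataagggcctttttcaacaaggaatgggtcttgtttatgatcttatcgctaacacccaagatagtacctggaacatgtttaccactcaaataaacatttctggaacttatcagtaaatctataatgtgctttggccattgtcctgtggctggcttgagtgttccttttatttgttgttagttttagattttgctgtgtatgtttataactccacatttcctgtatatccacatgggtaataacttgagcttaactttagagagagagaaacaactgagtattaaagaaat
Ephb3: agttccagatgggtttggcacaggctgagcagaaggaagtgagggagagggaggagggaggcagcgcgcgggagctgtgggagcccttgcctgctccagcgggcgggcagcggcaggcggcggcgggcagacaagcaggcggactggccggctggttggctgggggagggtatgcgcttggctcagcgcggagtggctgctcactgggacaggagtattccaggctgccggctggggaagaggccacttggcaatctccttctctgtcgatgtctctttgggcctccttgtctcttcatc
Slit2: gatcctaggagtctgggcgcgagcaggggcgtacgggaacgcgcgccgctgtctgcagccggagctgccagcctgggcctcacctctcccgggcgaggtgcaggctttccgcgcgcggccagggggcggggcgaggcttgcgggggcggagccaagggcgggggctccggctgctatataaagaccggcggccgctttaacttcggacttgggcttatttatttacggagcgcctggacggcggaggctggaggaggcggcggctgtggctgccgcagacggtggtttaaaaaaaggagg

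The chromatin of these genes was mostly marked outside promoters. Only 44 of the 310 regions (14.2%) were promoters, counted from 1000 bp before to 100 bp after a TSS, against 21.3% of all regions. Another 133 (42.9%) were intronic, against 36.9%, and 114 (36.8%) were intergenic, against 34.9%. An intron may be that of another gene than the one with the nearest TSS. The remaining regions were 12 in UTRs and 7 in coding or noncoding exons. The regions also lay far out. Their median distance from the TSS was 17063.5 bp, against 12628 bp for all regions, and 73 of them (23.5%, against 10.2%) were farther than 100 kb. The farthest, at Epha5, was 822311 bp away.

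Promoter regions were found at 39 of the 57 genes. Those with a promoter peak in all 18 mice included Efnb2, Ephb4, Robo4, Unc5b, Plxnd1, Sema3f, Sema3g, Sema7a, Sema6a and Slit2. Thus both partners of the arteriovenous pair Efnb2 and Ephb4, and the endothelial receptors Robo4, Unc5b and Plxnd1, had an open promoter in every list. In all, 27 of the 44 promoter regions (61.4%) had a peak in every list, against 79.2% of all promoter regions. Over all classes, 95 of the 310 regions (30.6%) had a peak in every list, against 36.8% of the 47338. At the other end of the rule, 30 regions had a peak in exactly 2 lists, with a median fold enrichment of 5.1, and 47 regions at the same genes had a peak in only 1 list and were left out, with a median fold enrichment of 5.06. Both rested on a median of 13 fragments at the summit.

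The number of regions per gene ranged from 1 to 22. Sema6a, a transmembrane semaphorin, had 22 and Efnb2 had 21. Sema6d, a related semaphorin, had 16, and Efna5, Slit3 and Plxna4os1 had 11 each. In contrast Ephb1 and Ephb6 each had a single region, the promoter, and it was called in all 18 mice.

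The share of the 310 regions with a peak followed the length of the list. It was lowest in Aged Bleo 4, at 39.7%, which also had the shortest list (21050 peaks on chromosomes 1 to 19, X and Y), and highest in Young Bleo 3, at 78.7%. The longest list, that of Aged Bleo 2, held 40883 peaks. Mean shares were 70.2% ± 6.06 (SD, n = 5) in Young Sham, 73.2% ± 5.29 (n = 4) in Young Bleo, 54.8% ± 8.2 (n = 4) in Aged Sham and 58.8% ± 16.4 (n = 5) in Aged Bleo. The corresponding means over all regions were 71.9%, 75.1%, 59.2% and 62.9%. The guidance loci lay below all regions in 17 of the 18 lists, by up to 7.46 percentage points in Aged Bleo 5, and above them in Young Bleo 4 alone, by 1.4 points. Hence the lower share in aged mice was shared with the genome at large.

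**Figure D1:**
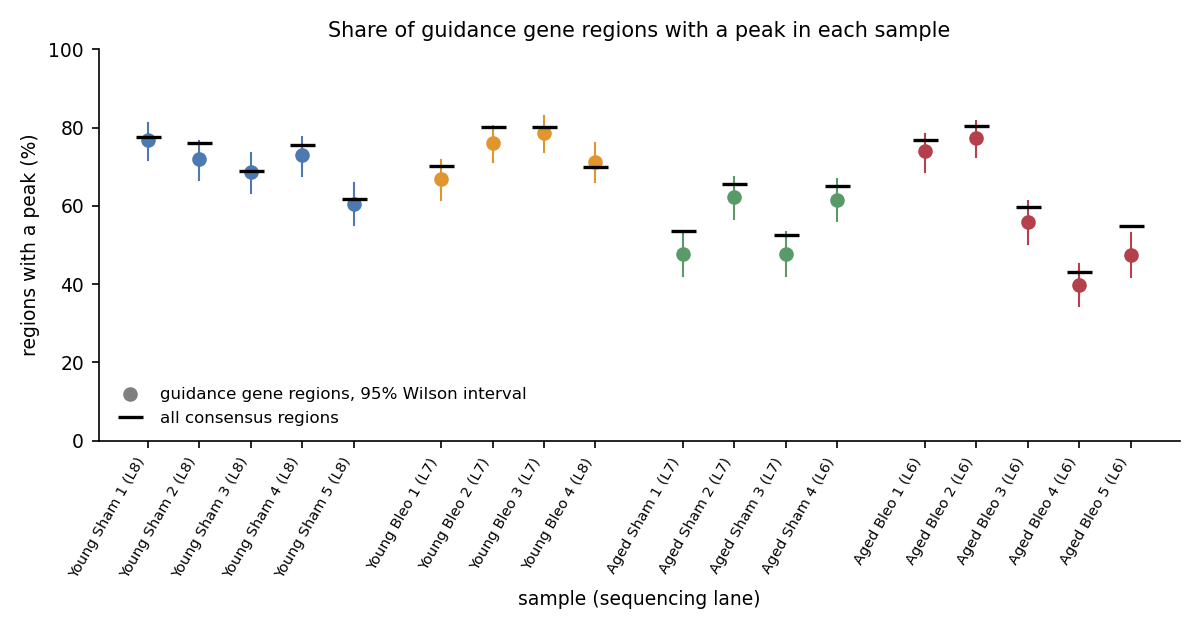
Share of regions with a peak in each mouse, in percent, for the guidance loci (310 regions) and for all 47338 regions, by group. Points are the guidance loci with 95% Wilson intervals, which cover counting error only, dashes are all regions, and L6 to L8 are the sequencing lanes as coded in the names of the lists. Aged mice spread widely, from 39.7% in Aged Bleo 4 to 77.4% in Aged Bleo 2, and the guidance loci lay below all regions in 17 of 18 mice.

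Promoters of the guidance genes had the highest mean share in Young Sham mice, but at equal list lengths Aged Sham stood level with them. Of the 44 promoter regions, Young Sham mice had a peak in 41, 42, 40, 38 and 39. Young Bleo mice had 35, 35, 38 and 37, Aged Sham mice 32, 35, 33 and 36, and Aged Bleo mice 39, 35, 34, 29 and 29. Young Sham thus did not overlap with Aged Sham, met Young Bleo at 38, and overlapped with Aged Bleo through Aged Bleo 1. The mean shares were 90.9% ± 3.59 (SD, n = 5) in Young Sham, 82.4% ± 3.41 (n = 4) in Young Bleo, 77.3% ± 4.15 (n = 4) in Aged Sham and 75.5% ± 9.7 (n = 5) in Aged Bleo. Over all 10081 promoter regions the means moved less, with 92.6% ± 1.99, 93.1% ± 1.51, 89.6% ± 1.89 and 88.6% ± 4.81. When every list was trimmed to its 21050 strongest peaks, the guidance promoters stood at 70.5%, 65.9%, 69.9% and 62.3% in the same order. All 10081 promoter regions then stood at 81.7%, 81.4%, 83.0% and 81.0%. At the guidance promoters Aged Sham and Young Sham then differed by less than the spread between mice. These shares are given as a description, with no test over the list.

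The promoter regions not called in every mouse were 17, at 16 genes. They lie at the semaphorins Sema4b, Sema4c, Sema5b and Sema6b, the plexins Plxna2, Plxna3 and Plxna4, the ephrins Efna1 and Efna3, the Eph receptors Epha1, Epha3 and Epha5, and Robo3, Slit3, Unc5c and Unc5d. Some of these genes have a second promoter region that was always called. Efna1 had a peak at 30 bp from a TSS in all 18 mice, while its second promoter region, 238 bp upstream of another, had one in 9. Sema4b showed the same, with 18 mice at its promoter 154 bp upstream and 9 mice at that 64 bp downstream of a TSS.

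Read by families, the difference between Young Sham and Aged Sham was widest at the class 5 semaphorins Sema5a and Sema5b, which carry thrombospondin repeats, with mean shares of 54.3% and 23.2%. Of the 14 class 5 regions, Young Sham mice had a peak in 9, 10, 3, 9 and 7, and Aged Sham mice in 1, 4, 2 and 6. These groups overlapped through Young Sham 3. The 5 Unc5 genes, with 16 regions, showed 13, 11, 11, 13 and 12 in Young Sham, against 9, 7, 9 and 6 in Aged Sham. This gap lay mainly at Unc5cl, which matched only by its letters, with 5, 4, 4, 5 and 4 of 5 regions in Young Sham and 2, 1, 2 and 1 in Aged Sham. Unc5b had 5 of 7 regions in each mouse of both groups. Robos, with 23 regions, had 16, 16, 17, 17 and 13 in Young Sham and 10, 11, 7 and 11 in Aged Sham, without overlap. Plexins, with 54 regions, differed least, at 67.8% in Young Sham and 63.4% in Aged Sham. The B-type ephrins Efnb1 and Efnb2, at 77.9% and 63.8%, differed about as much as all regions did. Of their 29 regions, Young Sham mice had 25, 22, 22, 23 and 21 and Aged Sham mice 16, 22, 16 and 20. Over all 47338 regions the shares ran from 61.7% to 77.7% in Young Sham and from 52.6% to 65.5% in Aged Sham. With every list trimmed to its 21050 strongest peaks, these families overlapped between the groups. Class 5 semaphorins then had 1 or 2 regions in all 9 of these mice, Robos 7 or 8 in Young Sham and 10, 6, 5 and 9 in Aged Sham, and Unc5 genes 7 or 8 in Young Sham and 5, 3, 8 and 5 in Aged Sham. Plexins then had 21, 23, 24, 21 and 21 in Young Sham and 21, 24, 23 and 23 in Aged Sham, so that Young Sham no longer stood higher.

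Of the 16 regions of class 4 semaphorins, 11, 8, 8, 9 and 7 had a peak in Young Sham and 10, 14, 13 and 12 in Young Bleo. These counts overlapped, and most of the difference lay at Sema4d, described below, while Sema4b had 4 of its 5 regions in each of these 9 mice. In trimmed lists the family had 3 regions in each Young Sham mouse and 3, 3, 5 and 5 in Young Bleo. Aged Bleo mice split on this family, with 16 and 15 regions in Aged Bleo 1 and 2, the aged mice with the longest lists, and 7, 5 and 5 in the other 3.

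**Figure D2:**
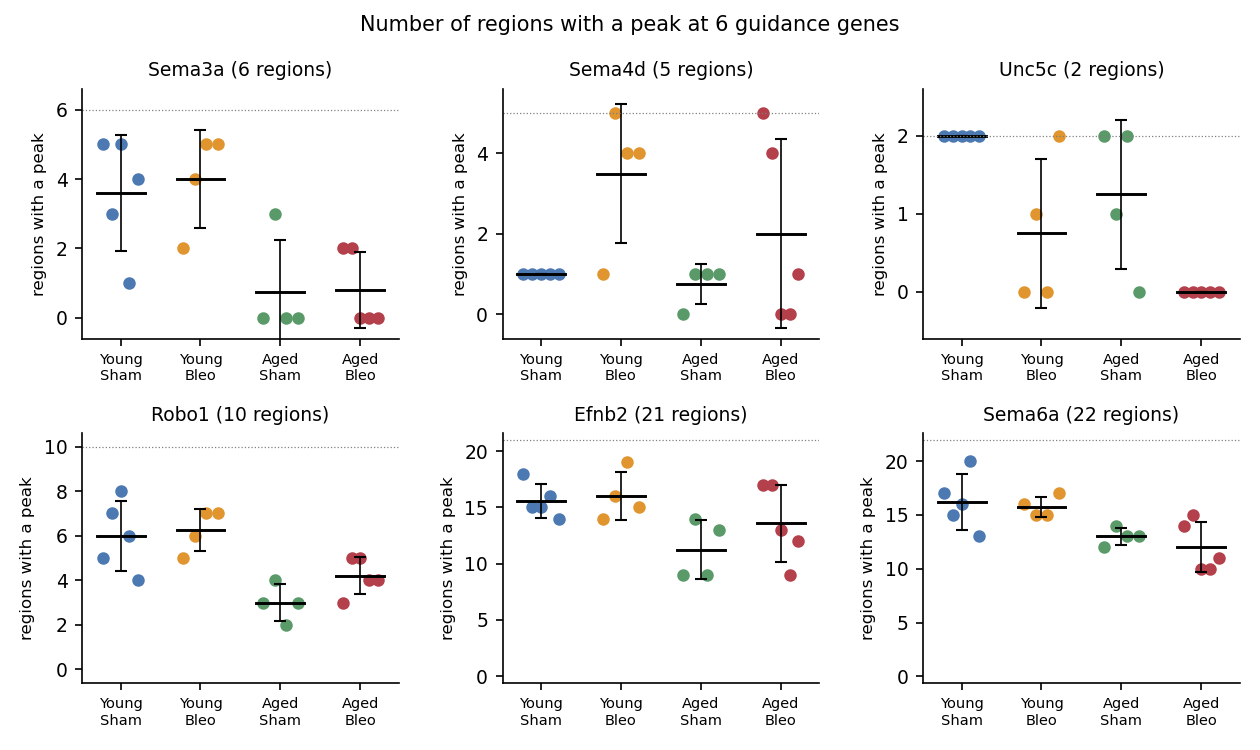
Number of regions with a peak in each mouse for single genes, by group, at 6 genes, with points for mice, thick lines for means, bars for SD and a dotted line at the gene's total. Sema4d was at 1 region in all 5 Young Sham mice and at 4 or 5 in 3 of 4 Young Bleo mice, and Unc5c was at 2 regions in all Young Sham and at 0 in all Aged Bleo mice.

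The first comparison set uninjured aged against uninjured young ECs, Aged Sham against Young Sham. No sequencing lane was shared between these groups. More regions were called as lost than as gained. A two-sided Fisher's exact test on the number of mice with a peak gave an unadjusted p of at most 0.05 for 20 of the 310 regions that were less often open in Aged Sham (6.45%, against 4.9% of all 47338 regions) and for 2 that were more often open (0.645%, against 0.264%). No region passed the Benjamini-Hochberg adjustment over all regions, here or in any of the 5 comparisons, since groups of 4 and 5 allow no exact p below 0.00794 and the smallest adjusted p here was 0.786. The calls are therefore candidates, and their share is close to that of the whole genome. With every list trimmed to its 21050 strongest peaks, 5 regions were lost and 2 gained. Of the original calls, 1 of the 20 losses and 0 of the 2 gains remained. Over all regions 433 were lost and 385 gained, against 2321 and 125 untrimmed. Trimming takes the weakest peaks out of the longer lists, and the 20 regions had median percentiles of fold enrichment from 1.93 to 44.3. A call that rests on weak peaks can thus be lost by trimming alone, here and in the other comparisons. Leaving out any 1 of the 9 mice left 5 to 9 lost (1.61% to 2.9%, against 1.09% to 2.11% of all regions), and 0 gained in 8 of the 9 cases.

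The 20 regions lay at 16 genes. Of these, 5 had a peak in all 5 Young Sham and in 0 of 4 Aged Sham mice (exact p = 0.00794). The Sema6c region, 10027 bp from the TSS of a transmembrane semaphorin, had fold enrichments of 7.51, 7.96, 5.76, 7.63 and 5.92 in Young Sham, resting on 16, 21, 15, 19 and 13 fragments. It was also called in all 4 Young Bleo mice and in 2 of 5 Aged Bleo mice. The Robo1 region lay 57913 bp upstream of the gene, a Slit receptor, at chr16:72605057-72605414. It was called in 5 of 5 Young Sham, 4 of 4 Young Bleo, 0 of 4 Aged Sham and 4 of 5 Aged Bleo mice, with 12 to 27 fragments where present, so that Aged Sham alone lacked it. The other 3 were an Unc5cl region (chr17:48544741-48545594), a region 22726 bp upstream of Sema4d, the semaphorin that binds Plxnb1 (chr13:51816143-51816664), and the promoter region 803 bp upstream of Plxna2, a co-receptor for class 3 semaphorins (chr1:194618854-194619198).

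The Plxna2 promoter region had fold enrichments of 3.73, 4.55, 5.52, 4.47 and 3.82 in Young Sham and 3.85, 3.58, 3.71 and 4.7 in Young Bleo, on 26 to 53 fragments. It was absent from all 4 Aged Sham lists and was found in Aged Bleo 1 alone, on 35 fragments. It is a weak peak beside a stronger one. The region that holds the Plxna2 TSS itself, classed as UTR by its midpoint 297 bp into the gene (chr1:194619539-194620713), had a peak in all 18 mice, and its median percentile of fold enrichment among the regions called in a list was 69.0, against 1.93 for the upstream region. The other promoters among the 20 were those of Slit3, with 5 of 5 against 1 of 4 mice, and Epha3, also with 5 of 5 against 1 of 4 (exact p = 0.0476 for both). The remaining calls were at Robo2, Sema5a, Slit3, Sema3a, Ephb4, Efnb2, Efna1, Unc5cl, Epha4, Sema6a and Efna2, each with an exact p of 0.0476. Of the 20, the numbers found in Young Bleo mice were 9, 10, 15 and 14, and in Aged Bleo mice 9, 10, 7, 2 and 4. Over all 2321 regions so called, the shares were 52.6%, 68.8%, 73.5% and 60.3% in Young Bleo and 55.6%, 60.1%, 31.8%, 7.24% and 23.7% in Aged Bleo.

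The 2 regions more often open in Aged Sham lay in introns, at the Sema4d locus (chr13:51716927-51717334) and 40781 bp into Plxna2 (chr1:194660436-194660784). Both had a peak in 3 of 4 Aged Sham and 0 of 5 Young Sham mice (exact p = 0.0476), and both were also open in all 4 Young Bleo mice.

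Sema3a, a secreted repellent that acts through neuropilin-1 and A-type plexins, had 6 regions, of which Young Sham mice had 5, 3, 5, 1 and 4 and Young Bleo mice 2, 4, 5 and 5. Aged Sham mice had 0, 3, 0 and 0 and Aged Bleo mice 2, 2, 0, 0 and 0. Thus 6 of the 9 aged lists held no Sema3a region at all, although Young Sham 4 also held only 1. In trimmed lists no mouse but Young Bleo 1 held a Sema3a region. Robo1, with 10 regions, had 5, 7, 8, 6 and 4 in Young Sham and 3, 4, 2 and 3 in Aged Sham. Sema6a had 17, 15, 16, 20 and 13 of 22 in Young Sham and 12, 14, 13 and 13 in Aged Sham. The groups met at 4 for Robo1 and overlapped for Sema6a through Young Sham 5, at 13. Trimming left Robo1 with 2, 2, 2, 1 and 2 regions in Young Sham and 3, 2, 2 and 3 in Aged Sham, so that Young Sham no longer stood higher. It left Sema6a with 10, 11, 11, 12 and 11 in Young Sham and 9, 9, 11 and 11 in Aged Sham.

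The next comparison asked how young ECs had responded to bleomycin by day 30, with Young Bleo against Young Sham. Of the 310 regions, 18 were more often open in Young Bleo (5.81%, against 3.98% of all regions) and 10 were less often open (3.23%, against 1.96%). The smallest adjusted p was 0.535. With lists of equal length 11 were gained and 8 lost (1024 and 883 over all regions), and 1 of the 18 original gains and 2 of the 10 losses remained. Leaving out any 1 mouse left 5 to 11 gained (1.61% to 3.55%, against 1.09% to 2.34% of all regions) and 3 to 6 lost (0.968% to 1.94%, against 0.499% to 1.04%).

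Sema4d accounted for 3 of the gained regions, Efnb2 and Plxnd1 for 2 each, and Sema3a, Sema3d, Sema4b, Sema5b, Sema6d, Sema7a, Plxna1, Plxna2, Efna5, Slit3 and Robo1 for 1 each. None was a promoter. In 5 the peak was present in 4 of 4 Young Bleo and 0 of 5 Young Sham mice (exact p = 0.00794). The Sema4d region whose sequence is given above had fold enrichments of 7.83, 9.21, 11.2 and 9.89 in Young Bleo, on 20, 22, 29 and 26 fragments. It was also called in 3 of 4 Aged Sham mice, with 5.45 to 6.14, and in Aged Bleo 1, 2 and 5, with 12, 10.3 and 6.54. The Plxna2 intronic region had 8.45, 9.17, 8.44 and 7.7 in Young Bleo, on 31, 32, 29 and 23 fragments. It was lower in the 3 Aged Sham mice that had it, at 6.01 to 6.53. In Aged Bleo it was called in mice 1 and 2 only, at 5.75 and 11.8. A region 14649 bp upstream of Plxnd1, the receptor of Sema3e, had 5.18, 4.97, 5.42 and 4.85 on 28 to 33 fragments. The other 2 were a region 459482 bp upstream of Sema3a (chr5:12937115-12937489), on 13 to 19 fragments, and one 10445 bp into Sema4b (chr7:80208841-80209224), on 13 to 20.

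For Sema4d as a whole, each Young Sham mouse had a peak in 1 of its 5 regions. Young Bleo mice had 1, 5, 4 and 4. Aged Bleo 1 and 2 had 5 and 4, and Aged Bleo 3, 4 and 5 had 0, 0 and 1. In trimmed lists Sema4d had 0 or 1 region in every mouse but Aged Bleo 1, which had 2.

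Regions lost after bleomycin in young mice lay at Unc5cl, Sema3c, Sema4b, Sema6a, Epha4, Unc5c, Efna2 and Epha3, with Unc5cl and Epha4 called at 2 regions each. In 3 the peak was present in 5 of 5 Young Sham and 0 of 4 Young Bleo mice (exact p = 0.00794). The Unc5cl region whose sequence is given above had 13.1, 8.32, 8.63, 10.3 and 8.04 in Young Sham, on 18 to 32 fragments, and was found elsewhere only in Aged Sham 3, at 8.66. A region 18472 bp upstream of Sema3c, a secreted semaphorin (chr5:17556096-17556592), had 6.12 to 10.3 in Young Sham and 8.18 to 9.25 in all 4 Aged Sham mice. It was absent from all 4 Young Bleo mice and present in 1 of 5 Aged Bleo mice, at 5.61. In full lists it was therefore open in all 9 Sham lists and in 1 of 9 Bleo lists. In trimmed lists this call between Young Bleo and Young Sham was lost. Sema3c as a whole then had 1, 1, 1, 2 and 1 of 3 regions in Young Sham, 1 in each Young Bleo and 2 in each Aged Sham mouse. The promoter of Sema4b that lies 64 bp from a TSS (chr7:80186684-80187184) had 4.65 to 6.51 in Young Sham on 10 to 17 fragments. The other Sema4b promoter was open in all 18 mice.

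Epha4, a receptor that binds ephrins of both types, had a peak in 8, 8, 7, 7 and 5 of its 8 regions in Young Sham. Young Bleo mice had 5, 6, 5 and 5, Aged Sham mice 4, 5, 4 and 6 and Aged Bleo mice 4, 6, 5, 4 and 5. Only Young Sham 5 fell into the range of the other groups. In trimmed lists the counts were 5, 5, 6, 5 and 4 in Young Sham and 3 or 4 in every other mouse.

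**Figure D3:**
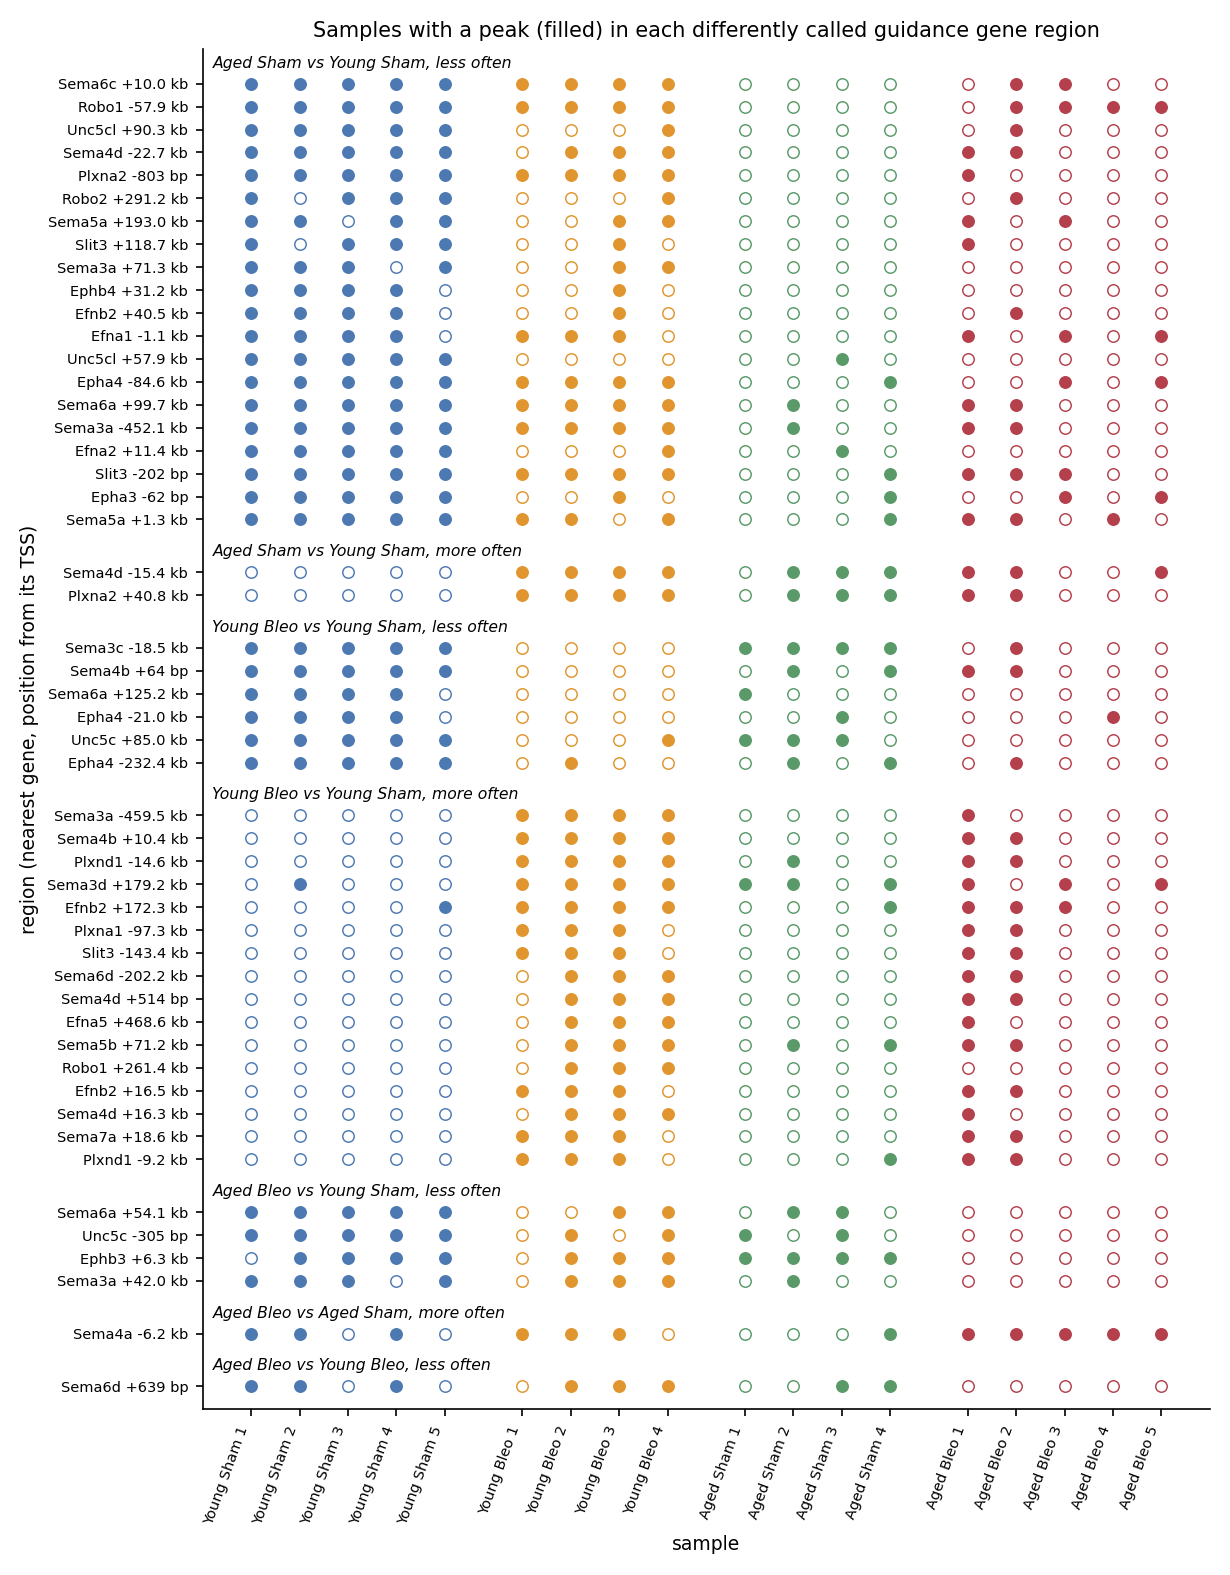
Presence of a peak in each of the 18 mice for the guidance regions called in at least 1 comparison, with regions in rows under the first comparison that called them, mice in columns by group, and filled circles for a peak. Aged Bleo 1 and 2 share most regions gained in Young Bleo, while Aged Bleo 3 to 5 share few.

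Aged ECs after bleomycin were then set against uninjured young ECs, Aged Bleo against Young Sham. Age, treatment and lane all differ between these groups and cannot be told apart. Of the 310 regions, 14 were less often open (4.52%, against 3.01% of all regions) and 0 were more often open (against 0.201% of all regions), and the smallest adjusted p was 1.0. With lists of equal length 8 were lost (2.58%, against 1.15% of all regions) and 2 gained (0.645%, against 0.646%), and 2 of the 14 remained. Requiring peaks to cover 50% of a region gave 29 losses (9.35%, against 5.8%). Leaving out 1 mouse gave 16 to 25 losses, which held all 14, with 24 or 25 without Young Sham 5, Aged Bleo 1 or Aged Bleo 2. These were 5.16% to 8.06% of the 310, against 3.12% to 5.63% of all regions. The 14 lay at 10 genes, and 5 were open in 5 of 5 Young Sham and 0 of 5 Aged Bleo mice (exact p = 0.00794). Unc5c, a netrin receptor, accounted for 2 of these, its promoter 305 bp upstream of the TSS (chr3:141464882-141465636) and the region 85035 bp into the gene. The intronic one had 9.76 to 11.6 in the 5 Young Sham mice, on 26, 26, 32, 33 and 23 fragments. It was open in 1 of 4 Young Bleo mice, at 4.62, and in 3 of 4 Aged Sham mice, at 5.08 to 8.91. The promoter had 5.03 to 7.62 in Young Sham, and was found in 2 of 4 Young Bleo and 2 of 4 Aged Sham mice. All 5 Aged Bleo mice had 0 of the 2 Unc5c regions, against 2 of 2 in all 5 Young Sham mice. The other regions without a peak in Aged Bleo and with one in every Young Sham mouse were at Unc5cl, at Efna2, an ephrin (11430 bp from the TSS), and at Sema6a, in an intron 54081 bp from the TSS.

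Of the 18 regions gained in Young Bleo, which rest on no aged sample, Aged Bleo 1 had a peak in 17 and Aged Bleo 2 in 13, while Aged Bleo 3, 4 and 5 had 2, 0 and 2. Aged Sham mice had 1, 5, 2 and 6. Over all 1885 regions gained in Young Bleo the shares were 76.9%, 77.4%, 18.0%, 2.97% and 10.6% in Aged Bleo 1 to 5. Mice of the Aged Bleo group therefore differed widely at the gained guidance regions, in the same order as their lists did in length, except that Aged Bleo 2 had the longest list.

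Bleomycin within aged mice, Aged Bleo against Aged Sham, gave few calls. Of the 310 regions 3 were less often open (0.968%, against 0.41% of all regions) and 2 more often (0.645%, against 0.475%), with a smallest adjusted p of 1.0. With lists of equal length 4 were lost and 2 gained (256 and 149 over all regions), and 1 of the 3 losses, at Sema3c, and 0 of the 2 gains remained. Leaving out any 1 mouse left 1 or 2 lost (0.323% or 0.645%, against 0.0549% to 0.123% of all regions). It left 0 or 1 gained (at most 0.323%, against 0.0275% to 0.215%). Requiring peaks to cover 50% of a region left 0 gained (against 0.264% of all regions). The lost ones were the Sema3c and Unc5c regions above and an intronic region 6274 bp into Ephb3, a receptor of B-type ephrins (chr16:21210762-21211376). The Ephb3 region had a peak in 4 of 4 Aged Sham mice, at 8.41, 6.01, 7.97 and 4.91, in 4 of 5 Young Sham mice and in 3 of 4 Young Bleo mice. It had one in 0 of 5 Aged Bleo mice (exact p = 0.00794), so that the Aged Bleo group alone lacked it. The gained ones were the Robo1 region upstream of the gene, with 4 of 5 against 0 of 4 mice, and a region 6164 bp upstream of Sema4a, with 5 of 5 against 1 of 4 (exact p = 0.0476 for both). Both were also open in young mice, in 9 of 9 for Robo1 and in 6 of 9 for Sema4a.

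Aged and young injured ECs were compared last. In Aged Bleo against Young Bleo 6 regions were less often open (1.94%, against 2.44% of all regions) and 0 were more often open (against 0.123%), with a smallest adjusted p of 1.0. With lists of equal length 3 were lost (0.968%, against 0.632% of all regions) and 1 gained (0.323%, against 0.399%), and 0 of the 6 remained. Leaving out any 1 mouse left 0 to 4 (at most 1.29%, against 0.353% to 0.834% of all regions), with 0 in 7 of the 9 cases. Requiring peaks to cover 50% of a region gave 19 (6.13%, against 5.6% of all regions), of which 2 were among the 6. The 6 were 2 regions of Sema3a, the Plxna2 promoter region, the Ephb3 region, an intronic Robo1 region and an intronic Sema6d region. The region 459482 bp upstream of Sema3a was open in 4 of 4 Young Bleo and 1 of 5 Aged Bleo mice (exact p = 0.0476). It was open in 0 of 5 Young Sham and 0 of 4 Aged Sham mice. The Robo1 region 261433 bp into the gene was open in 3 of 4 Young Bleo mice and in 0 of the 14 others.

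**Figure D4:**
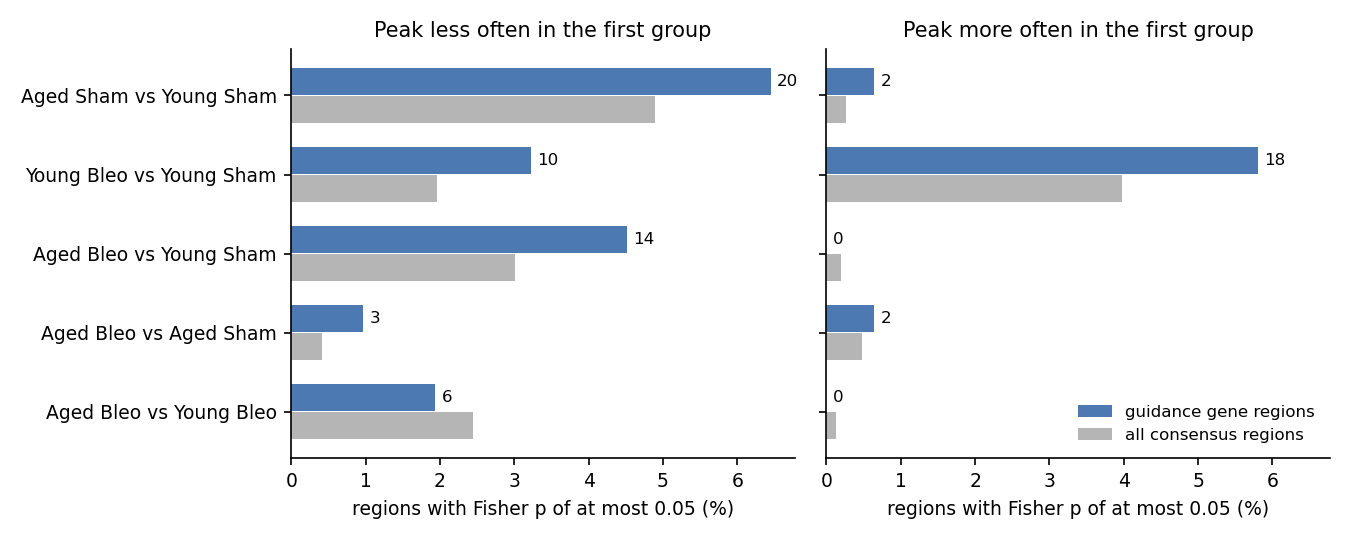
Percent of the 310 guidance regions and percent of all 47338 regions with a Fisher's exact p of at most 0.05, for each comparison and direction. Guidance regions lay above all regions in 7 of 10 cases, and no single region passed the adjustment over all regions. The comparisons share groups, and some of these cases rest on 2 or 3 guidance regions. Regions with a peak in all 18 mice cannot be called, and these were 30.6% of the guidance regions and 36.8% of all regions.

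In all, 50 of the 310 regions, at 28 genes, were called in at least 1 of the 5 comparisons, 18 of them in at least 2 and 7 in at least 3. These shares were 16.1%, 5.81% and 2.26%, against 12.5%, 4.07% and 1.23% of all regions. The other 260 were called in none. The comparisons share groups, so that a region can be called more than once through the same mice.

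Many genes with known roles in vessels had no call. None of the regions of Sema3f, Sema3g, Sema4c, Sema6b, Plxnb1, Plxnb2, Plxnc1, Efnb1, Epha2, Ephb1, Robo4, Slit2 and Unc5b passed the Fisher threshold in any comparison. Over all regions, 12.5% passed it in at least 1. A region with a peak in all 18 mice cannot pass it. That holds for the 1 region of Ephb1, 3 of 4 at Sema3g, 6 of 8 at Efnb1, 4 of 6 at Sema3f and 2 of 3 at Robo4. A lack of calls at these genes was thus largely set in advance. Sema3g, which arterial ECs secrete, had 4 of 4 regions in 16 of the 18 mice and 3 of 4 in Aged Sham 3 and Aged Bleo 4. Robo4 had 2 or 3 of its 3 regions, and Unc5b 5 to 7 of its 7 regions in all mice but Aged Bleo 4, which had 3. Efnb1, a ligand of EphB receptors, had 7 or 8 of 8 in all mice but Aged Bleo 5, which had 6. Epha2, the receptor of Efna1, ranged from 3 to 7 of 8. Among plexins, Plxnb1, the receptor of Sema4d, had a single region that only Aged Bleo 4 lacked, Plxnb2 had 2 to 4 of 4, and Plxnc1 had 1 to 5 of 7. Sema4c, a ligand of Plxnb2, had 2 to 5 of 5 and Sema6b 1 to 3 of 3. Efna1, a ligand of Epha2, had 1 call, a region 1146 bp upstream of the TSS that was open in 4 of 5 Young Sham and 0 of 4 Aged Sham mice. Efnb2 and Ephb4, whose promoters were always called, had calls only outside promoters. Plxna1, whose single call was a gain in Young Bleo, had 4 to 9 of 9 regions over the 18 mice. Sema6d had 6 to 11 of 16 in Young Sham, 8 to 12 in Young Bleo, 7 to 9 in Aged Sham and 3 to 15 in Aged Bleo. Slit3 had 8 or 9 of 11 in Young Sham, 7 to 9 in Young Bleo, 4 to 7 in Aged Sham and 5 to 10 in Aged Bleo. Slit3 in Aged Sham lay below every Young Sham mouse in the full lists, where the mean share of all regions was lower as well, but in trimmed lists the groups met, at 5 or 6 regions in Young Sham and 5, 3, 3 and 4 in Aged Sham. Efnb2 had 18, 15, 15, 16 and 14 of 21 regions in Young Sham, 14, 16, 19 and 15 in Young Bleo, 9, 14, 9 and 13 in Aged Sham, and 17, 17, 13, 9 and 12 in Aged Bleo.

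Among the 95 regions with a peak in every mouse, strength could be compared. The fold enrichment of each region was turned into its percentile among the 17432 regions with a peak in all 18 lists, within each list, and the percentiles were fitted with limma across those 17432 regions, with adjustment over all of them. The Slit2 promoter stood out. This peak lies at the TSS of Slit2, a secreted Robo ligand (chr5:47982841-47983512). Its percentiles were 61.8, 55.6, 64.6, 54.2 and 59.5 in Young Sham and 51.3, 62.9, 43.8 and 45.4 in Young Bleo. They were 38.4, 17.2, 18.3 and 16.7 in Aged Sham and 18.9, 19.6, 34.3, 5.79 and 9.24 in Aged Bleo. Every aged mouse lay below every young mouse. The summit held 84 to 130 fragments in Young Sham and 79 to 107 in Young Bleo, against 21 to 31 in Aged Sham and 11 to 37 in Aged Bleo.

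By limma the Slit2 promoter was lower in Aged Sham than in Young Sham by 36.46 percentile points (difference -36.46, SE 5.75, adjusted p = 0.00881), in Aged Bleo than in Young Sham by 41.57 points (-41.57, SE 5.42, adjusted p = 0.000578), and in Aged Bleo than in Young Bleo by 33.29 points (-33.29, SE 5.75, adjusted p = 0.0274). The last call is lost without any 1 of Young Bleo 1, 2 or 3 or Aged Bleo 4 or 5 (adjusted p of 0.0616 to 0.0993 by limma). The first is kept without any single mouse. Bleomycin changed it by -8.27 points in young mice and -5.11 in aged mice, and neither passed the test. Of the 17432 regions, 14 had a difference between Aged Sham and Young Sham as low as this or lower. Slit2 was named for the smallest p among the members, so that a low rank is partly set by that choice. The region is rich in G and C (69.5%). Over the 4361 regions of at least that content the median difference was 1.71 points, and 2 of them lay at or below the Slit2 value. The part of base composition in the difference was not tested. Within lane 7, which held both ages, Young Bleo 1 to 3 were at 43.8 to 62.9 and Aged Sham 1 to 3 at 17.2 to 38.4. Age and treatment both differ there.

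**Figure D5:**
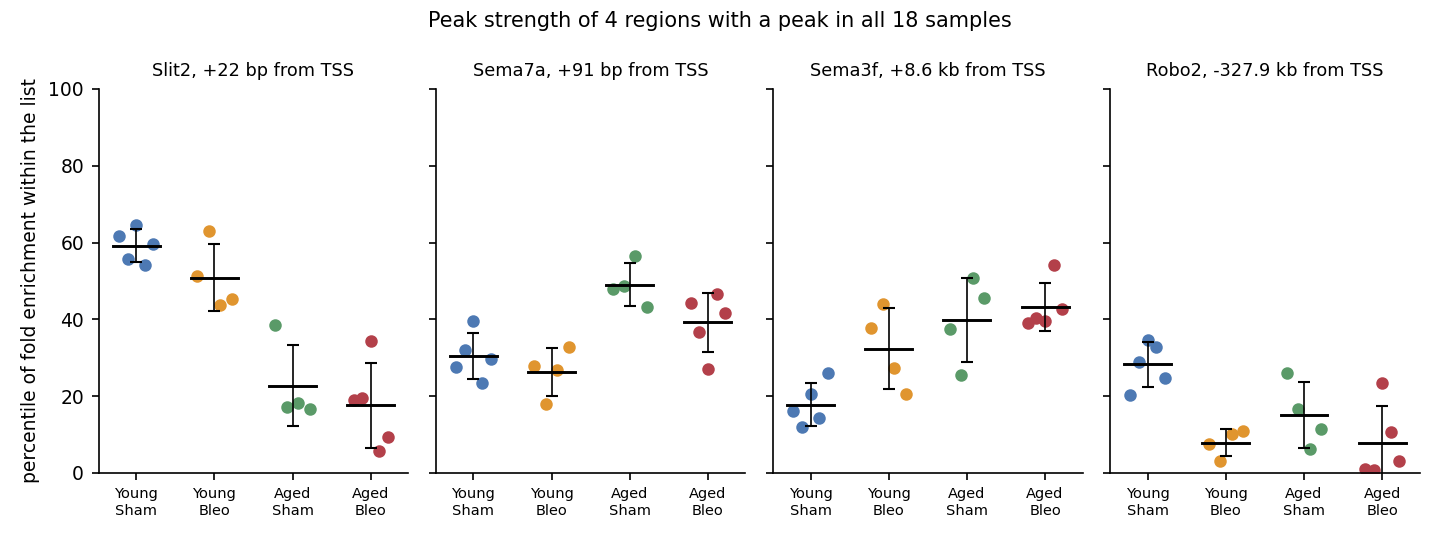
Percentile of fold enrichment, within each list, among the 17432 regions with a peak in every mouse, for single guidance regions by group, with a point for each mouse, thick lines for means and bars for SD. At the Slit2 promoter the young mice lie between 43.8 and 64.6 and the aged mice between 5.79 and 38.4.

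Other members were called by limma at fewer points. Of the 95 regions, 2 passed between Aged Sham and Young Sham (1.21% of all 17432 regions did; 5 by percentile of -log10 p, against 4.84%), the second being the promoter of Sema7a, a membrane-anchored semaphorin that binds integrins and Plxnc1. Its percentiles were 27.6, 32.0, 39.6, 23.4 and 29.6 in Young Sham and 47.9, 48.6, 56.5 and 43.1 in Aged Sham, a rise of 18.58 points (SE 4.26, adjusted p = 0.0452 by limma). The groups did not overlap. Its summit fragments did, with 38 to 88 in Young Sham and 46 to 81 in Aged Sham, and the call is lost without any 1 of 7 of the 9 mice compared (adjusted p up to 0.124 by limma) and on the log2 fold enrichment scale (adjusted p = 0.0771).

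Between Young Bleo and Young Sham 1 of the 95 passed (2.75% of all regions did). This was a Robo2 region that lies in an intron, 327852 bp upstream of the nearest Robo2 TSS. It had 20.3, 28.8, 34.6, 32.8 and 24.7 in Young Sham and 7.42, 2.95, 10.1 and 10.9 in Young Bleo. The difference was -20.38 points (SE 4.78, adjusted p = 0.0324 by limma). Young Bleo 4, which shared lane 8 with all Young Sham mice, was at 10.9 and below each of them. The call is lost without any 1 of 6 of the mice compared, with adjusted p values up to 0.109 by limma, and on the log2 fold enrichment scale (difference -0.61, adjusted p = 0.115). The next smallest p values were at a Slit3 region 71436 bp upstream (-26.9 points, adjusted p = 0.0798) and at a Sema6a region 196339 bp from the TSS (-14.81, adjusted p = 0.12), and neither passed limma's threshold. Both passed when strength was taken as the percentile of -log10 p (adjusted p = 0.0234 and 0.00304 by limma), a scale on which 9 of the 95 and 11.8% of all regions passed.

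Between Aged Bleo and Young Sham 6 of the 95 passed (10.6% of all regions did), and 21 by percentile of -log10 p (24.9%). Besides Slit2, a Sema3f region 8557 bp into the gene was higher, by 25.41 points (SE 5.06, adjusted p = 0.00686 by limma). Sema3f is a secreted semaphorin that binds neuropilin-2. Its percentiles were 16.0, 11.8, 20.6, 14.3 and 26.0 in Young Sham and 38.9, 40.4, 39.6, 54.1 and 42.7 in Aged Bleo, and they did not overlap. Aged Sham mice were at 37.4, 25.6, 50.7 and 45.5, higher than Young Sham by 22.08 points (SE 5.37, adjusted p = 0.0548 by limma), and by 24.63 points on the percentile of -log10 p (adjusted p = 0.0184), so that the call depends on the scale. Young Bleo 1 to 3 of lane 7 were at 37.6, 44.0 and 27.3, and Young Bleo 4, of lane 8 like all Young Sham mice, at 20.5. The Robo2 region was lower by 20.49 points (-20.49, SE 4.51, adjusted p = 0.0114). Regions at Robo3 (-8.36), Slit3 (-23.34) and Efnb1 (-14.81) were lower as well, with adjusted p of 0.0332, 0.0369 and 0.042 by limma. Each of these last 3 is lost when single mice are left out, and that at Robo3 also on the log2 fold enrichment scale (adjusted p = 0.409). Between Aged Bleo and Aged Sham 0 of the 95 passed limma's adjusted threshold (0.344% of all regions did). An unadjusted p of at most 0.05 was met by 8 of the 95, against 2766 of all 17432 regions. By percentile of -log10 p 6 passed the adjusted threshold (11.5%). The smallest p values there were at the same Robo3 region (-7.37 points, adjusted p = 0.159), the promoter of Ephb6, an Eph receptor without kinase activity (-11.17, adjusted p = 0.166), and a Slit3 intron (13.56, adjusted p = 0.174), all by limma. Between Aged Bleo and Young Bleo Slit2 was the only 1 (0.155% of all regions), ahead of a Plxna4os1 region (-28.77 points, adjusted p = 0.112) and the Sema7a promoter (12.88, adjusted p = 0.154). No member passed the test of whether the bleomycin response differed between ages (0 of 95, against 0.00574% of all regions). An unadjusted p of at most 0.05 was met by 3 of the 95 there, against 1590 of all 17432 regions. The largest difference of responses among members was at a Slit3 region 71436 bp upstream of the TSS, with 39.22 points (SE 11.15, adjusted p = 0.32 by limma).

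Motif letters near the summits were counted within windows of 200 bp. The ERG core was found in 72 of the 310 regions (23.2%), against 9449 of all 47338 regions, and the AP-1 site TGANTCA, searched on both strands, in 30 (9.68%, against 8.63% of all regions). AP-1 is a factor family that responds to growth signals and stress. Among the 18 guidance regions gained in Young Bleo, 6 held the ERG core (33.3%, against 23.5% of all gained regions) and 5 the AP-1 site (27.8%, against 17.8%). The AP-1 site was also found in 2 of the 10 lost ones, against 5.5% of all lost regions. The ERG core was found in 2 of the 20 regions less often open in Aged Sham, and in 0 of the 10 lost in Young Bleo and 0 of the 14 lost in Aged Bleo against Young Sham. The match marked above in the longer Unc5cl sequence lies outside its 200 bp window. The corresponding shares over all lost regions were 20.5%, 25.8% and 21.8%.

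The partners of these pathways, that is co-receptors, netrins and downstream adaptors and exchange factors, had 227 regions at 48 genes. Of these regions 12 were less often open in Aged Sham than in Young Sham (5.29%, against 4.9% of all regions) and 0 more often. In Young Bleo 9 were less often open than in Young Sham (3.96%, against 1.96%) and 11 more often (4.85%, against 3.98%). In Aged Bleo 10 were less often open than in Young Sham (4.41%, against 3.01%) and 0 more often. Against Aged Sham, 1 was less often open in Aged Bleo (0.441%, against 0.41%) and 0 more often, and against Young Bleo 5 were less (2.2%, against 2.44%) and 1 more often open (0.441%, against 0.123%). Gained regions in Young Bleo included the promoter region of Nrp1, the neuropilin through which Sema3a acts, with 4 of 4 against 1 of 5 mice (exact p = 0.0476). An intronic region of Nrp2, which binds Sema3f, was open in 4 of 4 against 0 of 5 (exact p = 0.00794). The 11 gained regions lay at 10 genes. Nrp2 was also among the genes with a region less often open in Aged Bleo than in Young Sham.

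The labelled cell type was checked by promoter peaks of marker genes. Of 10 endothelial markers, 7 to 10 had a promoter peak in each list, with Cdh5, Kdr, Tie1, Erg, Cldn5, Egfl7 and Ramp2 in all 18, Pecam1 in 17, Tek in all 9 young and 5 of 9 aged lists, and Emcn in 7 lists, none of them Aged Sham. None of 6 leukocyte and 6 epithelial markers had a promoter peak in any list, and of 8 fibroblast and mural markers Pdgfra alone had one, in all 18 lists. The lymphatic regulator Prox1 had one in 17 lists and the lymphatic receptor Lyve1 in 7. Of the mesothelial markers, Wt1 had one in 1 list and Upk3b in none. The part of these EC subtypes in the differences was not tested.

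Depth and sequencing lane moved with the groups. Lanes are those coded in list names, and could not be checked against another source here. Background coverage was 1.26 to 1.78 fragments in Young Sham and 1.02 to 1.44 in Aged Sham. The called guidance regions rested on few fragments, with medians of 13 to 19 at the summit where a peak was present, so that a region without a peak may have been open below the limit of detection. All 5 Young Sham mice were in lane 8 and all 5 Aged Bleo mice in lane 6, while Young Bleo mice were in lanes 7 and 8 and Aged Sham mice in lanes 6 and 7. No lane was shared between Young Sham and either aged group, or between Aged Bleo and Young Bleo. An effect of age therefore cannot be told apart from one of lane in these 3 comparisons, those of the Slit2 promoter included. In Aged Bleo against Young Sham the treatment differs as well, so that age, bleomycin and lane cannot be told apart there. Within lane 8, the direction from Young Sham to Young Bleo 4 was that of the call in 13 of the 18 gained and 7 of the 10 lost regions, against 66.6% and 86.5% of all regions so called. Within lane 6, the direction from Aged Sham 4 to Aged Bleo was that of the call in 2 of the 3 lost and 1 of the 2 gained regions, against 81.4% and 77.8% of all regions so called. These single mice took part in the calls, so that much of this likeness is set by how the regions were chosen. The part of depth and lane in the differences was not tested.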

How the data were processed

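The series holds 18 ATAC-seq peak lists, and only these lists were used. Per the paper's methods, the authors mapped reads to mm10 with BWA, removed duplicates with Picard, and called peaks in each mouse with MACS2 at an FDR of 1%. Their differential analysis used read counts, which were not analysed here. The deposited fold enrichment was read as the ratio, within that library, of summit fragments to their local background, with 1 added to both. It therefore also depends on depth. The -log10 p and -log10 q of each peak were deposited as written by the authors' MACS2 runs, and the deposited score, which the authors' caller derives from them, was not used. None is scaled between libraries.

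The 310 regions, their families and the partner list were chosen with earlier results of these data known. Conditions came from the labels and lanes from the names of the lists. Mitochondrial peaks (19) were left out. Region classes came from 45756 RefSeq transcripts. Presence was tested with two-sided Fisher's exact tests in 5 comparisons, taking an unadjusted p of at most 0.05, and strength with limma 3.58.1 in R 4.3.3 on all 18 mice with Benjamini-Hochberg adjustment. Both were tested on simulated data. Fragments at summits were solved from fold enrichment and -log10 p. Library totals are unknown. Named regions were, for each comparison, the first 4 in each direction by p (then by difference and strength) with those tied in p, the 3 smallest limma p values, and genes listed by role. Python 3.11.15, numpy 2.4.6, pandas 2.3.3, scipy 1.17.1 and matplotlib 3.10.9 were used. Alternatives changed the peak threshold, the overlap, the number of lists, the distance, the number of peaks per list, the strength measure and the samples.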

Additional observations from a re-analysis of the deposited data

Results flagged for a closer look

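Samples that stood apart within a group were searched in 56 sets of values, each a region or gene within 1 group, with Dixon's criterion, which chance meets in about 1 in 20 groups. It was met in 2 sets. At the Slit2 promoter, Aged Sham 1 had a percentile of 38.4, while the other 3 Aged Sham mice lay between 16.7 and 18.3. Its gap took up 0.926 of the range of the group. It still lay below every young mouse, and without it the difference between Aged Sham and Young Sham was -41.72 points. At the Sema3f region 8557 bp into the gene, Aged Bleo 4 had a percentile of 54.1, while the other 4 Aged Bleo mice lay between 38.9 and 42.7 (gap 0.75 of the range). Aged Bleo 4 also had the shortest list. No gene or always-called region moved in all young mice one way and in all aged mice the other way after bleomycin.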

How the results depend on the processing

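Some group differences turned round in lists trimmed to 21050 peaks. Robo1 then had 2, 2, 2, 1 and 2 regions in Young Sham and 3, 2, 2 and 3 in Aged Sham. Plexins had 21, 23, 24, 21 and 21 in Young Sham and 21, 24, 23 and 23 in Aged Sham. The guidance promoter share was 65.9% in Young Bleo and 69.9% in Aged Sham, against 82.4% and 77.3% in full lists. Over all promoter regions it was 81.7% in Young Sham and 83.0% in Aged Sham, against 92.6% and 89.6%. With 21050 peaks in each list, the presence calls became 5 lost in Aged Sham, 11 gained in Young Bleo, and 8 lost and 2 gained in Aged Bleo against Young Sham. Aged Bleo against Aged Sham had 4 lost (1.29%, against 0.541% of all regions) and 2 gained (0.645%, against 0.315%). Aged Bleo against Young Bleo had 3 lost (0.968%, against 0.632%) and 1 gained (0.323%, against 0.399%). The cause was not tested. The original calls that remained were at Epha4 (84575 bp upstream), Plxna2 (intron), Sema3c (in Aged Bleo against Aged Sham only), Unc5c (intron) and Unc5cl. Trimming takes out the weakest peaks first, so that calls resting on weak peaks could hardly remain. Requiring peaks to cover 50% of a region gave 1 gained in Aged Sham (0.323%, against 0.283% of all regions). In Aged Bleo it gave 29 lost against Young Sham (9.35%, against 5.8%), 0 gained against Aged Sham (against 0.264%) and 19 lost against Young Bleo (6.13%, against 5.6%). A -log10 q of at least 5 left 6 lost in Young Bleo (1.94%, against 1.83% of all regions). A distance of at most 100 kb left 11 of 237 gained there (4.64%, against 3.6%). Strength calls covered Aged Sham, Young Bleo and Aged Bleo against Young Sham, Aged Bleo against Aged Sham and Young Bleo, and the interaction. In this order the guidance regions had 1, 0, 8, 0, 1 and 0 calls on the log2 fold enrichment scale. The shares of all regions called on that scale were 1.34%, 2.14%, 10.8%, 0.591%, 0.218% and 0.0%. By percentile of -log10 p the guidance regions had 5, 9, 21, 6, 1 and 0 calls. The shares of all regions were then 4.84%, 11.8%, 24.9%, 11.5%, 0.459% and 0.0%.

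Leaving out 1 mouse gave 5 to 9 lost and 0 to 2 gained in Aged Sham, 3 to 6 and 5 to 11 in Young Bleo, 16 to 25 and 0 to 1 in Aged Bleo against Young Sham, 1 to 2 and 0 to 1 against Aged Sham, and 0 to 4 and 0 to 0 against Young Bleo. The p values that can be reached change with group size. Strength calls ranged over 1 to 4, 0 to 2, 3 to 10, 0 to 0, 0 to 1 and 0 to 0.

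Replicate numbers do not pair the mice. Deviations of same-numbered mice correlated at -0.2 to 0.17 (25 pairs), and 4 of 18 mice correlated best with a mouse of their own number. With the replicate block, exact tests on pairs cannot reach the threshold and all presence counts were 0, and the strength calls were 1, 1, 6, 0, 0 and 0. Depth limits every absent peak to a statement on detection.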
